A study of Mus musculus with 81 samples.

Results

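The genes of antigen presentation by major histocompatibility complex (MHC) class II were followed in mouse microglia. The set holds the 10 rows of the deposited gene tables, of 25124 rows in each table, whose symbol is H2-Aa, H2-Ab1, H2-Eb1, Cd74, Ciita, H2-DMa, H2-DMb1, H2-DMb2, H2-Oa or H2-Ob. The rows were taken by gene name, though the list was drawn up with earlier results of these data known. All 10 passed the filter on low counts in each of the 5 fits. Microglia were sorted by flow cytometry from brains of adult male C57BL/6 mice, and polyadenylated RNA was sequenced with a strand-marking protocol in 81 libraries of 28 groups, with 2 to 4 libraries per group. Mice ate 0.2% cuprizone, a copper chelator that removes myelin, for 4, 5 or 6 weeks, or a regular diet.

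The 4-week experiment had Trem2KO mice, which lack the lipid-sensing receptor Trem2, and WT mice. The 5-week experiment had Mef2aKO mice of the genotype Cx3cr1CreERT2/WT::Mef2afl/fl and Cre control mice of the genotype Cx3cr1CreERT2/WT. The 6-week experiment had Egr2KO mice, Cx3cr1CreERT2/WT::Egr2fl/fl, and Cre mice, and the same genotypes gave 2 ungated libraries each at 5 weeks. The Cre driver is active in cells that express Cx3cr1, border macrophages among them, so neither floxed line is restricted to microglia. The KO and control mice of these 2 lines both carry the Cre allele in place of 1 copy of Cx3cr1. The gates used CD229 (Ly9), CD11c (Itgax) and, at 5 weeks, Clec7a. Brains of 2 to 6 mice were pooled for a sample. Groups are therefore called by genotype, week and gate, such as WT CD229+CD11c- cells at 4 weeks. The 3 Cre libraries from regular diet serve as the baseline of both the 5-week and the 6-week fits.

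Class II molecules show peptides from endosomes to CD4+ T cells. H2-Aa and H2-Ab1 encode the α and β chains of I-A, and H2-Eb1 encodes the β chain of I-E, whose α chain gene is not functional in C57BL/6 mice. Cd74 is the invariant chain that escorts new class II molecules to endosomes. H2-DMa pairs with H2-DMb1 or H2-DMb2 as the peptide exchange factor DM, and H2-Oa pairs with H2-Ob as DO, which inhibits DM. CIITA, the product of Ciita, is the co-activator that switches the class II genes on through the RFX, CREB and NF-Y proteins bound to the X and Y boxes of their promoters. Resting microglia are known for little class II, while dendritic cells, B cells and macrophages at the borders of the brain carry more.

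The promoters are shown because those boxes are the shared feature through which CIITA acts. RefSeq promoter sequence (GRCm38.p6) was at hand for 7 of the 10 members. Capitals mark GATTGG, a core of the Y box, and AACNNNTGA, a core of the X box, on either strand. Each line gives the bases from 125 to 21 before the annotated start, in the direction of transcription, and both cores were chosen after these sequences had been looked at.
H2-Eb1, chr17:34305742-34305846, + strand: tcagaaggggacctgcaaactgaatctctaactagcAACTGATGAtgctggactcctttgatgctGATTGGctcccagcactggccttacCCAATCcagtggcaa
H2-Aa, chr17:34287844-34287948, - strand: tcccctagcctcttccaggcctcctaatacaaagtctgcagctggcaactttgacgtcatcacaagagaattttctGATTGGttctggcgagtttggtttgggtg
H2-DMb1, chr17:34153066-34153170, + strand: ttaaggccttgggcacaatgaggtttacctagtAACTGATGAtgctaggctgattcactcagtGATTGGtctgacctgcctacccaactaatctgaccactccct
H2-DMb2, chr17:34145124-34145228, + strand: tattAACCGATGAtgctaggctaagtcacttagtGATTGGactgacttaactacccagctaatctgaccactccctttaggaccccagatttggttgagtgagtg
H2-DMa, chr17:34125393-34125497, + strand: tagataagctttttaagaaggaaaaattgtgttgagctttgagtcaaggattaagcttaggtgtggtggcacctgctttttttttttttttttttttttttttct
H2-Oa, chr17:34092254-34092358, + strand: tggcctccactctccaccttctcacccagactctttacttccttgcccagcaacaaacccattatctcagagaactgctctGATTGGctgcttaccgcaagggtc
H2-Ob, chr17:34238780-34238884, + strand: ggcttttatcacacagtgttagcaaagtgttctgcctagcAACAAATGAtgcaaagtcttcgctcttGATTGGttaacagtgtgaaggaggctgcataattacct

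An X core that started 10 to 40 bases before a Y core was found in 4 of these genes, H2-Eb1, H2-DMb1, H2-DMb2 and H2-Ob. The same pair was found in 0.265% of 32851 promoters of the same table, which hold 250 bases before and 50 bases after each start. GATTGG alone was in 16.1% of those promoters and AACNNNTGA in 11.9%. H2-Aa and H2-Oa had the Y core alone. H2-DMa had neither in the window shown, which lies before the start of the counted transcript, and a Y core 199 bases before that start. The table lists a second start of H2-DMa, whose promoter held neither core. The start listed for H2-DMb2 is not that of its counted transcript, which RefSeq lists as non-coding. Whether its counts come from a coding transcript of H2-DMb2 was not tested. No promoter was at hand for H2-Ab1, Cd74 and Ciita. These letters are a description of the windows, not measured binding.

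The libraries held between 4387075 and 13972985 counts. Trem2 averaged 105.8 to 157 CPM (a count scaled by its library's total) in the Trem2KO groups and 387 to 626 CPM in the WT groups. Egr2 averaged 22.4 CPM in Egr2KO cells and 67.0 CPM in Cre cells in the ungated sort at 5 weeks. Mef2a averaged 891 CPM in Mef2aKO Clec7a- cells and 812 CPM in Cre Clec7a- cells, so counts over the whole gene did not check the Mef2aKO label. Of the microglia markers, P2ry12 was at 470 to 1854 CPM, Tmem119 at 349 to 1559 CPM and Cx3cr1 at 1004 to 3226 CPM over the libraries. Markers of B cells (Cd79a, Ms4a1, Pax5, Ebf1), of T and NK cells (Cd3e, Cd3d, Cd3g, Cd2, Nkg7), of monocytes (Ly6c2, Plac8, Chil3) and of dendritic cells (Ccr7, Cd209a) averaged under 1 CPM over the 81 libraries. Above that level were Cd79b, Klrb1c, the dendritic cell genes Batf3, Zbtb46, Flt3, Clec9a and Xcr1, and Ccr2, a chemokine receptor of monocytes. Ccr2 group means ran from 5.53 CPM in Mef2aKO Clec7a+CD229- cells to 24.2 CPM in Cre CD229+CD11c- cells at 6 weeks. The 8 border macrophage markers (Mrc1, Cd163, Pf4, Lyve1, Folr2, F13a1, Cbr2 and Ms4a7) were present in all groups, with a sum of 8.72 to 386 CPM. Their sums are given with the results below, because such macrophages carry class II. The part of such cells in a result was not tested where nothing else is said. In sorted bulk RNA, fewer cells of a type and less RNA per cell cannot be told apart.

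Across the 28 groups the members fell into 2 ranges of spread. H2-Aa, H2-Ab1, H2-Eb1, Cd74 and Ciita each had their highest group mean in Cre CD229+CD11c+ cells at 6 weeks. H2-Aa averaged 205 CPM there and 2.16 CPM in Mef2aKO Clec7a- cells at 5 weeks, its lowest group, a ratio of 94.7. That ratio of highest to lowest group mean was 80.4 for H2-Eb1, 34.0 for Ciita, 29.5 for Cd74 and 29.2 for H2-Ab1. For the accessory chains it was 2.72 for H2-DMb2, 2.64 for H2-DMa, 1.72 for H2-Oa, 1.58 for H2-Ob and 1.5 for H2-DMb1.
The accessory chains thus differed far less between groups than the classical chains, the invariant chain and the co-activator. Per kilobase of the listed transcript, the mean level over the 81 libraries was highest for Cd74 at 108 CPM per kilobase and lowest for Ciita at 0.700 CPM per kilobase. Ciita was low in counts as well, with a single read in 1 of the Mef2aKO libraries, so its values are the least precise. H2-DMb1 and H2-DMb2 are near-identical copies that can share reads, and their split is uncertain.

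**Figure D1:**
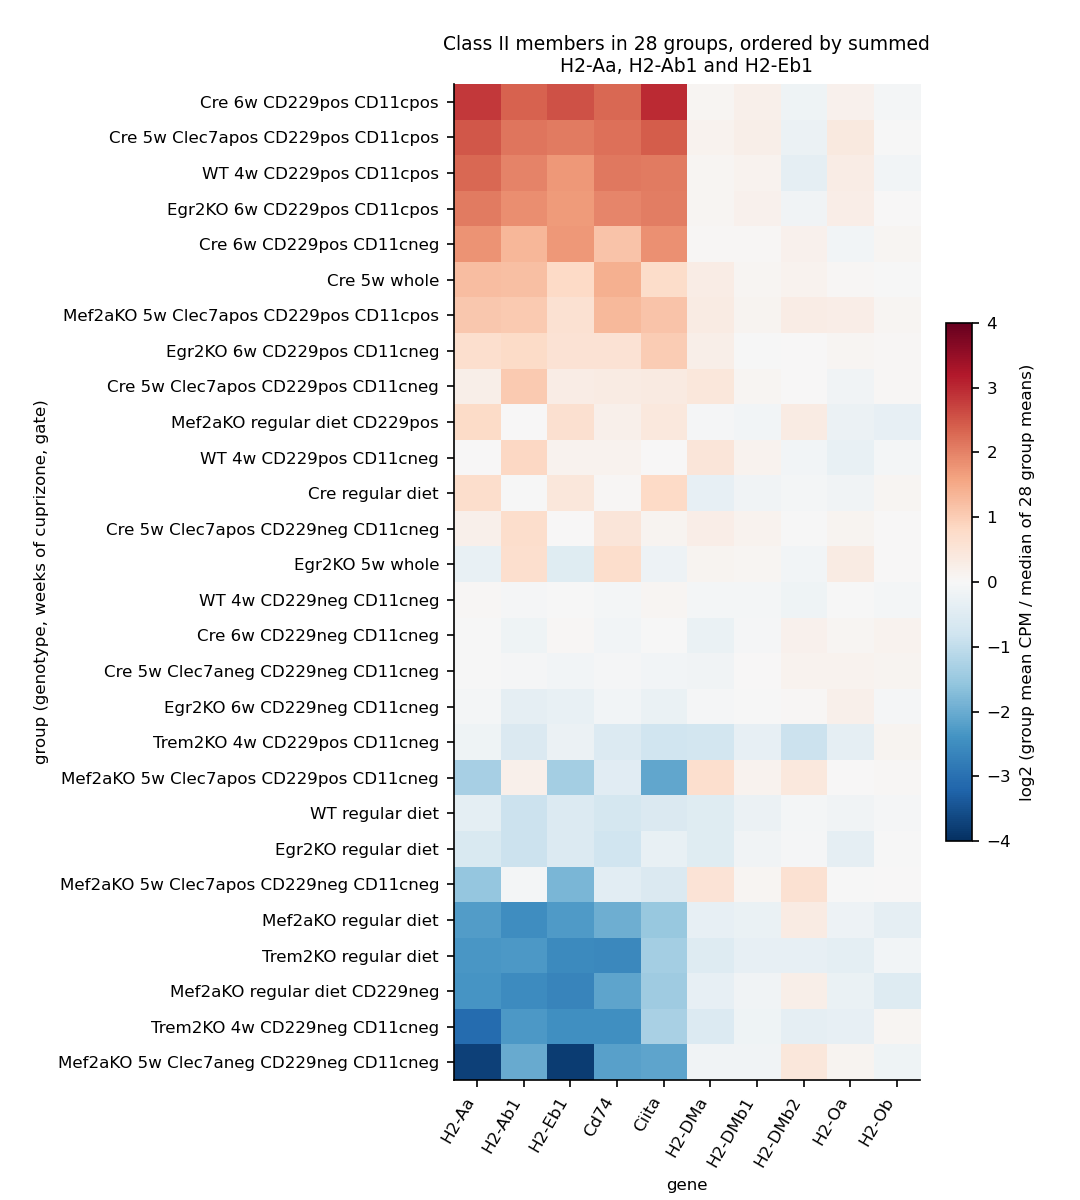
Mean level in CPM of each of the 10 members (columns) in each of the 28 groups (rows, ordered by the summed H2-Aa, H2-Ab1 and H2-Eb1), as the log2 ratio to that member's median over the group means. The columns of H2-Aa, H2-Ab1, H2-Eb1, Cd74 and Ciita run from blue at the bottom to red at the top, while those of H2-DMb1, H2-Oa and H2-Ob stay pale.

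H2-Aa, H2-Ab1 and H2-Eb1 summed, here called the classical trio, averaged 520.5 ± 114 CPM in Cre CD229+CD11c+ cells at 6 weeks (SD, n = 3), the highest of the 28 groups. It averaged 414 ± 21.2 CPM in Cre CD229+CD11c+ cells at 5 weeks and 359 ± 21.6 CPM in WT CD229+CD11c+ cells at 4 weeks (SD, n = 3 each). The lowest means were 15.5 ± 9.14 CPM in Mef2aKO CD229- cells on regular diet (SD, n = 3), 14.9 ± 3.65 CPM in Trem2KO CD229-CD11c- cells (SD, n = 4) and 12.5 ± 2.74 CPM in Mef2aKO Clec7a- cells (SD, n = 2). Of the 27 pairs of neighbours in this order, 24 overlapped in their libraries, so the order holds for distant groups and not for most neighbours.

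Cells in the CD11c+ gate were compared with CD229+CD11c- cells of the same genotype and week in 5 pairs of groups, and Cd74 and H2-Ab1 rose in all 5 by edgeR. By DESeq2 Cd74 passed in all 5, while H2-Ab1 did not pass in WT cells (adjusted p = 0.0776), in Egr2KO cells (adjusted p = 0.187) or in Cre cells at 6 weeks (adjusted p = 0.158). H2-Aa was at 151, 132 and 139.5 CPM in WT CD11c+ cells at 4 weeks, against 22.1, 19.8 and 44.6 CPM in WT CD229+CD11c- cells. The log2 fold change was 2.25 ± 0.45 (SE), with an adjusted p of 0.000481 by edgeR's quasi-likelihood test. Cd74 was at 480, 419 and 415 CPM in WT CD11c+ cells and 93.5, 94.3 and 144 CPM in WT CD11c- cells.
No library of 1 gate overlapped the other for either gene. Ciita, the co-activator, was at 8.59, 10.8 and 10.4 CPM in WT CD11c+ cells and 2.58, 1.45 and 3.12 CPM in WT CD11c- cells, a log2 fold change of 2.01 ± 0.36 (adjusted p = 0.000165, edgeR). Of the 10 members, 6 rose and 1 fell, where 23.3% of all 12647 genes tested passed. The members' median log2 fold change was 0.86. The median over all genes lay between -0.015 and 0.034 in each of the 37 comparisons made here.

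At 5 weeks the trio, Cd74 and Ciita rose and H2-DMa fell in Mef2aKO CD11c+ cells, where 10.7% of 13204 genes passed. Ciita was at 4.09, 3.64 and 7.66 CPM in Mef2aKO CD11c+ cells and 0.578, 0.712 and 0.373 CPM in Mef2aKO CD229+CD11c- cells, a log2 fold change of 3.14 ± 0.48 (adjusted p = 2.07e-05, edgeR). In Cre CD11c+ cells at 5 weeks the same genes and H2-Oa rose and H2-DMa fell, where 14.1% passed. H2-Aa was at 173, 152 and 157 CPM in Cre CD11c+ cells and 33.6, 31.9 and 35.3 CPM in Cre CD229+CD11c- cells (log2 fold change 2.25 ± 0.28, adjusted p = 5.87e-07, edgeR).
In both genotypes all CD11c+ libraries stood above all CD229+CD11c- libraries for the trio, Cd74 and Ciita. At 6 weeks Cd74, H2-Aa and H2-Ab1 rose in Egr2KO CD11c+ cells, where 11.7% of 13187 genes passed. Cd74, Ciita, H2-Ab1 and H2-Oa rose in Cre CD11c+ cells, where 17.2% passed. Cd74 was at 639, 489 and 371 CPM in Cre CD11c+ cells and 213, 266 and 182 CPM in Cre CD229+CD11c- cells at 6 weeks, with a log2 fold change of 1.20 ± 0.33 (adjusted p = 0.0126, edgeR). The trio, Cd74 and Ciita did not overlap between the 2 gates in either 6-week genotype. Of these, H2-Eb1 and Ciita did not pass in Egr2KO cells, nor H2-Aa and H2-Eb1 in Cre cells. The share of all genes without overlap is not given, so this describes the libraries only. Leaving out 1 Egr2KO library left 1 or 2 of the 3 calls in number, and 1 without CD229+CD11c- replicate 1, 2 or 3 or CD11c+ replicate 1 or 3. Without Cre CD229+CD11c- replicate 3 no member passed at 6 weeks, and 2 passed without replicate 1 of that gate or without CD11c+ replicate 1 or 2. The differences between genotypes in this step were not tested.

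H2-DMa, the α chain of DM, ran the other way. It was at 135, 133 and 154 CPM in WT CD11c+ cells and 189, 192 and 176 CPM in WT CD229+CD11c- cells, a log2 fold change of -0.41 ± 0.08 (adjusted p = 0.000292, edgeR). At 5 weeks the log2 fold change was -0.39 ± 0.08 in Mef2aKO cells (adjusted p = 0.00114, edgeR). H2-DMa was at 142, 149.7 and 147 CPM in Cre CD11c+ cells and 184, 186 and 184 CPM in Cre CD11c- cells at 5 weeks (log2 fold change -0.34 ± 0.08, adjusted p = 0.00355, edgeR). It changed by -0.19 ± 0.09 in Egr2KO cells and 0.05 ± 0.09 in Cre cells at 6 weeks on the log2 scale, neither of which passed. H2-Oa, the α chain of the DM inhibitor DO, was at 45.2, 44.4 and 43.2 CPM in WT CD11c+ cells and 27.3, 30.6 and 31.1 CPM in WT CD11c- cells. Its partner H2-Ob did not pass in any of the 5 comparisons.

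**Figure D2:**
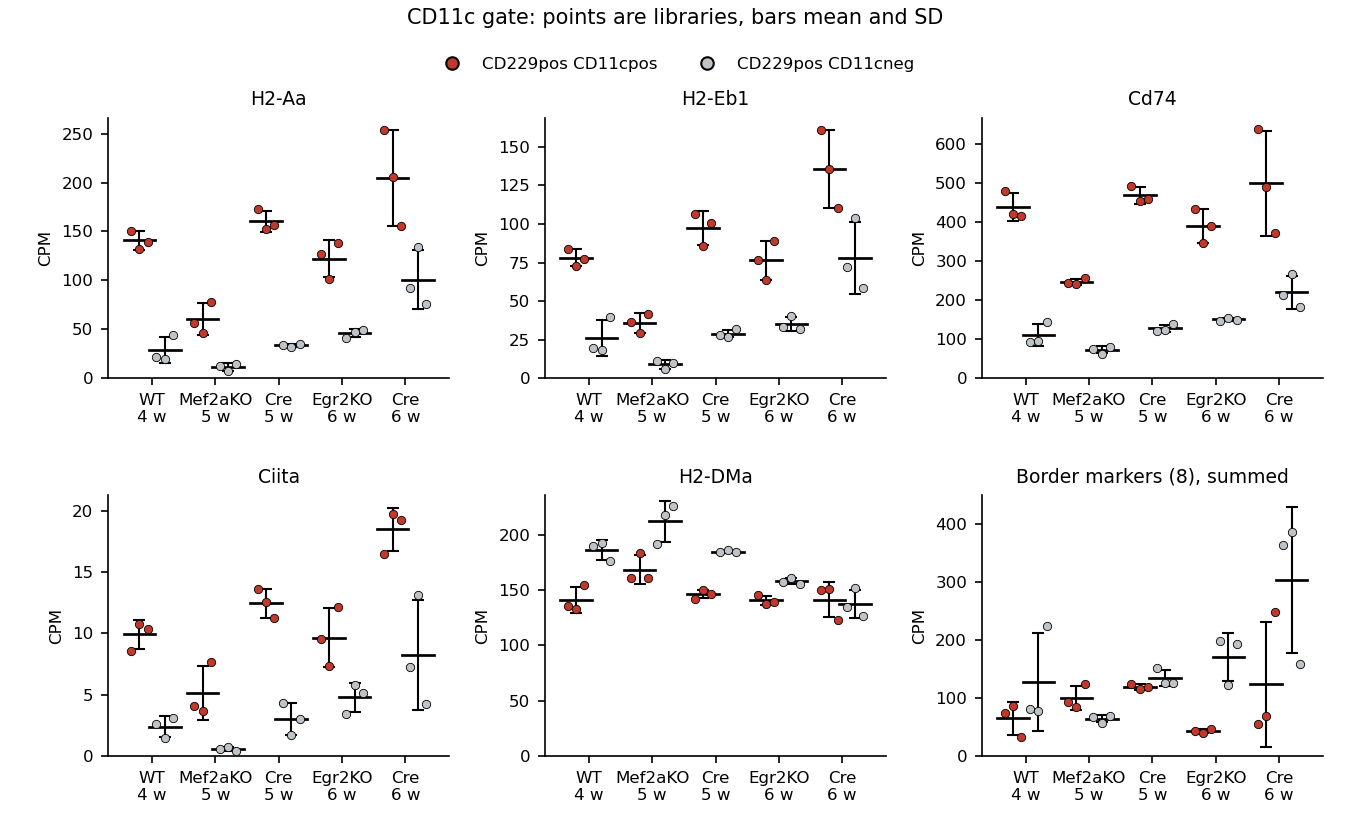
H2-Aa, H2-Eb1, Cd74, Ciita, H2-DMa and the 8 summed border macrophage markers in CD229+CD11c+ cells (red, left of each pair) and CD229+CD11c- cells (grey), in CPM, by genotype and weeks of cuprizone. Each point is 1 library and bars are the mean and SD; the WT H2-Aa points sit between 132 and 151 CPM in CD11c+ cells and between 19.8 and 44.6 CPM in CD11c- cells.

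The summed border macrophage markers were higher in all CD11c+ libraries than in the CD11c- libraries in Mef2aKO cells alone. In Mef2aKO cells the sum was 84.0 to 124 CPM in CD11c+ cells and 57.6 to 68.4 CPM in CD11c- cells. They summed to 33.6 to 87.1 CPM in WT CD11c+ cells and 77.1 to 224 CPM in WT CD11c- cells, and 115 to 125 CPM in Cre CD11c+ cells and 126 to 151 CPM in Cre CD11c- cells at 5 weeks. At 6 weeks they summed to 40.4 to 47.1 CPM in Egr2KO CD11c+ cells and 123 to 198 CPM in Egr2KO CD11c- cells, and to 54.7 to 248 CPM in Cre CD11c+ cells and 159 to 386 CPM in Cre CD11c- cells. Of the 8 markers, 0 rose and 2 fell in WT cells, 3 rose and 1 fell in Mef2aKO cells and 1 rose and 1 fell in Cre cells at 5 weeks, and 0 rose and 6 fell in Egr2KO cells and 0 rose and 2 fell in Cre cells at 6 weeks. With the markers' mean level as a covariate, added after seeing the data, 7, 6, 7, 5 and 6 members passed in WT, Mef2aKO, 5-week Cre, Egr2KO and 6-week Cre cells. The share of all genes passing with this covariate is not given, here or below. Such counts therefore do not set the members apart from other genes. Of the 7 dendritic cell markers, Batf3, a factor of cross-presenting dendritic cells, rose in WT cells, in Mef2aKO and Cre cells at 5 weeks and in Egr2KO cells, and Zbtb46, a dendritic cell factor, rose in WT cells and in Cre cells at 6 weeks. The other 5 did not pass or were too low to be tested. Their sum was 20.3 to 27.2 CPM in WT CD11c+ cells and 11.3 to 16.0 CPM in WT CD11c- cells, and its part in the result was not tested. Ccr2 fell in Cre CD11c+ cells at 6 weeks (log2 fold change -1.06 ± 0.32, adjusted p = 0.0196, edgeR) and passed in no other of the 5 comparisons.

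Other genes of the pathway were compared across the same gate. None of the 7 factors of the class II promoter (Rfx5, Rfxap, Rfxank, Nfya, Nfyb, Nfyc and Creb1) passed in any of the 5 CD11c comparisons, and their median log2 fold changes were between -0.18 and 0.00. Of 7 co-stimulatory and inhibitory genes, Cd48, the ligand of CD244, and Cd274, which encodes PD-L1, rose in all 5. Cd274 had a log2 fold change of 0.49 in WT cells, 0.39 in Mef2aKO cells and 0.35 in Cre cells at 5 weeks, and 0.51 in Egr2KO cells and 0.76 in Cre cells at 6 weeks. Of 9 genes of the interferon-gamma receptor, JAK-STAT and IRF list, Ifngr1 and Ifngr2, the receptor chains, rose in WT cells with log2 fold changes of 0.21 and 0.18. In that comparison 23.3% of all genes passed, so the rise of these receptor chains does not set the list apart. Of 7 lysosomal processing genes, Ctsd, Ctsl and Lgmn fell in WT cells. The other CD11c comparisons are not described for the interferon and lysosomal lists.

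The CD229 gate without CD11c gave differences that varied by genotype and week. In WT mice at 4 weeks, H2-Ab1 was at 57.3, 50.8 and 77.3 CPM in CD229+ cells and 25.2, 26.5 and 49.2 CPM in CD229- cells. Its log2 fold change was 0.91 ± 0.33 (adjusted p = 0.0228, edgeR), while that of its partner chain H2-Aa was 0.00 ± 0.46. H2-DMa was at 189, 192 and 176 CPM in WT CD229+ cells and 119, 124 and 141 CPM in WT CD229- cells, with a log2 fold change of 0.56 ± 0.08 (adjusted p = 1.25e-06, edgeR).
H2-DMa was thus higher in CD229+ cells and, as given above, lower again in CD11c+ cells. With H2-DMb1 (0.25 ± 0.07) higher and H2-Oa (-0.25 ± 0.10) lower, 4 of 10 members passed in WT cells, where 48.8% of all genes did. Only 2 members passed without CD229- replicate 1 or 2 or without CD229+ replicate 3. By DESeq2 H2-DMa and H2-DMb1 passed, and H2-Ab1 did not (log2 fold change 0.94, adjusted p = 0.119). The border macrophage markers summed to 77.1 to 224 CPM in WT CD229+ cells and 60.3 to 191 CPM in WT CD229- cells, and Folr2 alone rose. At 5 weeks no member passed between Clec7a+CD229+ and Clec7a+CD229- cells in Mef2aKO mice, where 0.47% of genes passed in edgeR, nor in Cre mice, where 5.53% passed. At an unadjusted p under 0.05 there was 1 of 10 members in Mef2aKO cells and 2 in Cre cells, beside 1179 and 2578 of all 13204 genes. DESeq2 called 0 members in both. The markers summed to 57.6 to 68.4 CPM in CD229+ cells and 42.2 to 59.6 CPM in CD229- cells of Mef2aKO mice, where none passed. They summed to 126 to 151 CPM in CD229+ cells and 102.5 to 193 CPM in CD229- cells of Cre mice, where Folr2 alone rose.

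In Egr2KO mice at 6 weeks Ciita, H2-Ab1 and H2-DMa rose in CD229+ cells, where 27.5% of genes passed. H2-Aa there was at 41.5, 46.8 and 49.4 CPM in CD229+ cells and 17.5, 30.0 and 35.1 CPM in CD229- cells, with no overlap and a log2 fold change of 0.76 ± 0.47 that did not pass. Calls fell to 0 without Egr2KO CD229- replicate 1 or 2 or CD229+ replicate 2, and to 1 without CD229- replicate 3 or CD229+ replicate 3. In Cre mice at 6 weeks, the trio, Cd74, Ciita and H2-DMa rose in CD229+ cells, where 17.2% of genes passed. H2-Aa was at 92.1, 134 and 75.4 CPM in CD229+ cells and 21.6, 39.1 and 25.6 CPM in CD229- cells, a log2 fold change of 1.79 ± 0.43 (adjusted p = 0.00371, edgeR). In Mef2aKO mice on regular diet, the trio and Cd74 rose in CD229+ cells, where 0.15% of 12628 genes passed. Cd74 was at 96.6 and 135 CPM in CD229+ cells and 19.9, 13.98 and 36.8 CPM in CD229- cells (log2 fold change 2.29 ± 0.38, adjusted p = 0.0263, edgeR). No member passed there without CD229- replicate 1 or 2, without CD229+ replicate 2, or with a replicate block. Between Mef2aKO CD229+ cells and ungated Cre cells on regular diet no member passed in edgeR, where 1.59% of genes did. At an unadjusted p under 0.05 there were 3 of 10 members and 1418 of all 12628 genes, and DESeq2 called 0 members. None of the 8 border macrophage markers passed there, with sums of 84.4 and 190 CPM in Mef2aKO CD229+ cells and 28.99 to 163 CPM in Cre cells.
The border macrophage markers moved with these results. They summed to 123 to 198 CPM in CD229+ cells and 49.4 to 70.0 CPM in CD229- cells of Egr2KO mice at 6 weeks, and 4 of 8 rose. They summed to 159 to 386 CPM in CD229+ cells and 70.0 to 101 CPM in CD229- cells of Cre mice at 6 weeks, and 7 of 8 rose. Ccr2 rose there as well, at 20.6 to 29.9 CPM in CD229+ cells and 5.996 to 12.3 CPM in CD229- cells (log2 fold change 1.39 ± 0.32, adjusted p = 0.0031, edgeR), and its part in the result was not tested. In Mef2aKO mice on regular diet the sums were 84.4 and 190 CPM in CD229+ cells and 20.1 to 45.1 CPM in CD229- cells. With the markers' mean as a covariate, 1 member passed in Egr2KO cells and 0 in Cre cells at 6 weeks, and 0 in Mef2aKO cells on regular diet.

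The Clec7a gate, set for a receptor of cells that respond to myelin damage, was used at 5 weeks in CD229-CD11c- cells. In Mef2aKO mice the trio, Cd74 and H2-DMa rose in Clec7a+ cells, where 45.8% of genes passed. Cd74 was at 76.5, 68.4 and 81.2 CPM in Mef2aKO Clec7a+ cells and 22.98 and 22.1 CPM in Mef2aKO Clec7a- cells (log2 fold change 1.77 ± 0.26, adjusted p = 1.13e-06, edgeR). In Cre mice H2-Ab1, Cd74 and H2-DMa rose, where 37.9% passed. H2-Ab1 was at 66.2, 53.2 and 51.8 CPM in Cre Clec7a+ cells and 34.7, 26.0 and 41.0 CPM in Cre Clec7a- cells, a log2 fold change of 0.81 ± 0.20 (adjusted p = 0.00126, edgeR).
No library of the Clec7a- gate reached a Clec7a+ library for Cd74 in either genotype. Without Mef2aKO Clec7a- replicate 1, 3 of its 5 calls were left in number. The border macrophage markers summed to 42.2 to 59.6 CPM in Mef2aKO Clec7a+ cells and 8.72 to 13.4 CPM in Mef2aKO Clec7a- cells, and 4 of 8 rose. They summed to 102.5 to 193 CPM in Cre Clec7a+ cells and 22.4 to 33.6 CPM in Cre Clec7a- cells, and all 8 rose.
With their mean as a covariate the log2 fold changes in Cre cells were -1.94 for H2-Aa, -1.62 for H2-Eb1, -0.58 for Cd74 and -0.51 for H2-Ab1. The lysosomal processing genes Ctsb, Ctsd, Ctsl, Ctss, Ctsz and Ifi30, 6 of a list of 7, rose in Clec7a+ cells of both genotypes, with a median log2 fold change of the list of 0.79 in Mef2aKO cells and 0.80 in Cre cells.

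Cuprizone was compared with regular diet between the gate that lacked all markers and the ungated baseline, so diet and gate cannot be told apart. In WT CD229-CD11c- cells at 4 weeks H2-DMa and H2-DMb1 rose, where 30.4% of genes passed. H2-DMa was at 119, 124 and 141 CPM in WT cuprizone cells and 89.0, 90.4 and 106 CPM in WT baseline cells (log2 fold change 0.47 ± 0.08, adjusted p = 4.23e-05, edgeR). In Egr2KO cells at 6 weeks H2-DMa and H2-Oa rose, where 8.23% passed. H2-Oa was at 39.9, 48.7 and 36.5 CPM in Egr2KO cuprizone cells and 27.2 and 29.7 CPM in Egr2KO baseline cells.
The trio itself passed in none of these comparisons by edgeR. By DESeq2 H2-Eb1 was lower in Mef2aKO cuprizone cells at 5 weeks (log2 fold change -1.51, adjusted p = 0.0334). No member passed in Trem2KO cells at 4 weeks, where 7.28% of genes did, in Mef2aKO cells at 5 weeks (7.85%), in Cre cells at 5 weeks (28.8%) or in Cre cells at 6 weeks (5.85%) by edgeR. At an unadjusted p under 0.05 there were 2, 4, 4 and 2 of the 10 members. At that cut there were 2397 of all 12647 genes, 2726 and 5190 of 13204, and 2266 of 13187. DESeq2 called 0, 1, 0 and 0 members. Baseline libraries varied widely: H2-Aa was at 1.57, 31.6 and 32.4 CPM in the WT baseline and at 66.4, 61.3 and 14.2 CPM in the Cre baseline. In the same libraries the border macrophage markers summed to 21.5, 124 and 115 CPM in the WT baseline and to 163, 148 and 28.99 CPM in the Cre baseline, low in the library where H2-Aa was low. Ccr2 ran from 6.19 to 17.2 CPM in the WT baseline and from 7.64 to 32.6 CPM in the Cre baseline. Without Cre baseline replicate 3, 5 members were lower in Cre cells at 5 weeks, and 1 passed without Clec7a- replicate 1, 2 or 3. Without Egr2KO baseline replicate 2 there were 6 calls, and without replicate 1 there was 1. In WT cells 1 call was left without baseline replicate 1 or 2 or cuprizone replicate 2 or 3. In Trem2KO cells 1 member passed without cuprizone replicate 2. In Mef2aKO cells 2 passed without baseline replicate 3 and 1 without Clec7a- replicate 1.
At 4 weeks the border macrophage markers summed to 20.2 to 32.04 CPM in Trem2KO cuprizone cells and 22.1 to 91.0 CPM in the Trem2KO baseline, and to 60.3 to 191 CPM in WT cuprizone cells. At 5 weeks the sums were 8.72 and 13.4 CPM in Mef2aKO cuprizone cells and 28.5 to 40.4 CPM in the Mef2aKO baseline, and 22.4 to 33.6 CPM in Cre cuprizone cells. At 6 weeks they were 49.4 to 69.98 CPM in Egr2KO cuprizone cells and 19.6 and 58.3 CPM in the Egr2KO baseline, and 70.04 to 101 CPM in Cre cuprizone cells. In Cre cells at 5 weeks 1 of the 8 rose and 6 fell, while at most 1 passed in each other diet comparison. Ccr2 fell in Cre cells at 5 weeks (log2 fold change -1.06 ± 0.28, adjusted p = 0.00405, edgeR) and at 6 weeks (-1.22 ± 0.33, adjusted p = 0.0221, edgeR).

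H2-Aa, H2-Ab1, H2-Eb1 and Cd74 were lower in Mef2aKO than in Cre cells in each of the 5 gates sorted in both. In ungated cells on regular diet H2-Aa was at 3.49, 4.86 and 10.1 CPM in Mef2aKO cells and 66.4, 61.3 and 14.2 CPM in Cre cells, a log2 fold change of -2.93 ± 0.36 (adjusted p = 1.73e-06, edgeR). In Clec7a- cells at 5 weeks it was at 1.72 and 2.60 CPM in Mef2aKO cells and 29.3, 20.1 and 35.6 CPM in Cre cells (log2 fold change -3.67 ± 0.57, adjusted p = 3.06e-05, edgeR). In CD11c+ cells it was at 56.8, 46.4 and 78.4 CPM in Mef2aKO cells and 173, 152 and 157 CPM in Cre cells (log2 fold change -1.43 ± 0.27, adjusted p = 0.000595, edgeR).
The 2 genotypes did not overlap in any of the 5 gates for H2-Aa, H2-Ab1, H2-Eb1 or Cd74, each of which passed in all 5 by edgeR. By DESeq2 H2-Ab1 did not pass in Clec7a+CD229- cells (log2 fold change -0.78, adjusted p = 0.0854). The share of all genes without such overlap is not given. On regular diet 6 members fell (the trio, Cd74, Ciita and H2-Ob), where 3.84% of genes passed. In Clec7a- cells 4 fell, where 5.53% passed. In Clec7a+CD229- cells 4 fell and H2-DMb2 rose, where 3.7% passed. In Clec7a+CD229+CD11c- cells 5 fell, where 4.9% passed. In CD11c+ cells 5 fell and H2-DMb2 rose, where 4.69% passed. Without Mef2aKO CD229+CD11c- replicate 2, 3 of the 5 calls in that gate were left in number.

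Ciita fell on regular diet, in Clec7a+CD229+CD11c- cells and in CD11c+ cells by edgeR. By DESeq2 it passed in Clec7a- cells, where it did not by edgeR (DESeq2 log2 fold change -1.94, adjusted p = 0.0407). It was at 4.09, 3.64 and 7.66 CPM in Mef2aKO CD11c+ cells and 13.6, 12.6 and 11.2 CPM in Cre CD11c+ cells, a log2 fold change of -1.28 ± 0.31 (adjusted p = 0.00909, edgeR). In Clec7a+CD229+CD11c- cells it was at 0.578, 0.712 and 0.373 CPM in Mef2aKO cells and 4.29, 1.70 and 3.04 CPM in Cre cells (log2 fold change -2.40 ± 0.51, adjusted p = 0.00256, edgeR). Of the DM and DO chains, only H2-DMb2 and H2-Ob passed in any gate. H2-DMb2 was at 21.2, 18.8 and 18.7 CPM in Mef2aKO CD11c+ cells and 13.9, 13.5 and 13.5 CPM in Cre CD11c+ cells (log2 fold change 0.49 ± 0.13, adjusted p = 0.0252, edgeR). H2-DMb2 was higher in all Mef2aKO than in all Cre libraries in each of the 5 gates, but passed in only 2 of them. H2-Ob was at 49.5, 49.2 and 57.1 CPM in Mef2aKO and 67.8, 75.4 and 68.5 CPM in Cre cells on regular diet, the one gate in which it passed.

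**Figure D3:**
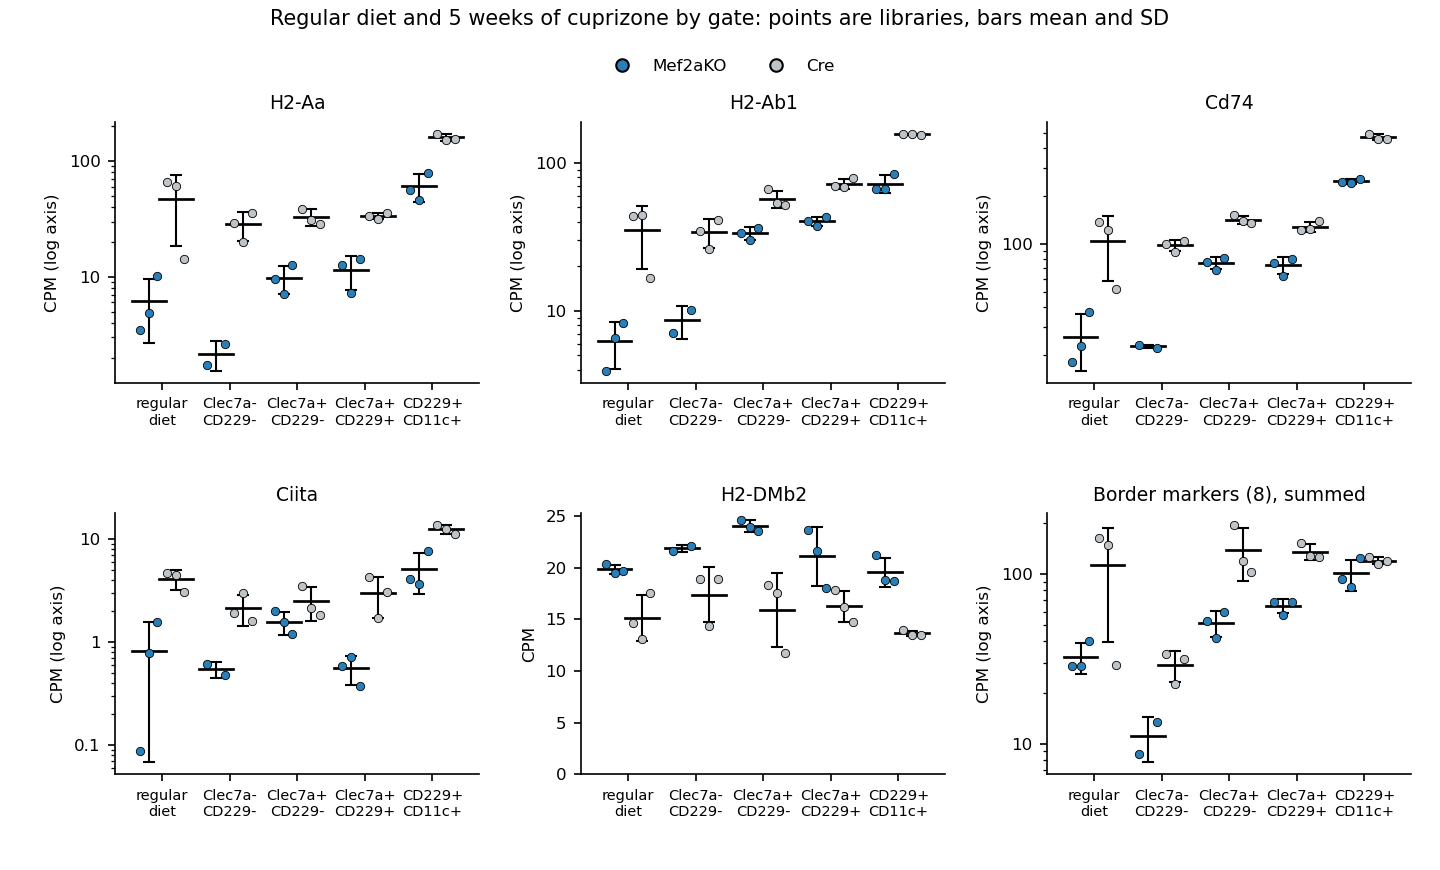
Levels in CPM of H2-Aa, H2-Ab1, Cd74, Ciita, H2-DMb2 and the 8 summed border macrophage markers in Mef2aKO (blue, left of each pair) and Cre cells (grey), by diet and gate, on log axes except for H2-DMb2; points are libraries and bars are the mean and SD. H2-Aa is lower in all Mef2aKO libraries of each gate, and the marker sums in CD11c+ cells overlap, 84.0 to 124 CPM in Mef2aKO and 115 to 125 CPM in Cre cells.

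Border macrophage markers were lower beside class II in part of these gates. On regular diet all 8 fell, and their sum was 28.5 to 40.4 CPM in Mef2aKO cells and 28.99 to 163 CPM in Cre cells. Ccr2 fell there too (log2 fold change -1.54 ± 0.29, adjusted p = 0.000769, edgeR), and in no other of the 5 gates. In Clec7a+CD229- cells 5 of 8 fell, with sums of 42.2 to 59.6 CPM in Mef2aKO cells and 102.5 to 193 CPM in Cre cells. In Clec7a+CD229+CD11c- cells 5 of 8 fell, with sums of 57.6 to 68.4 CPM in Mef2aKO cells and 126 to 151 CPM in Cre cells. In Clec7a- cells Folr2 alone fell, Cd163 was at 0 in both Mef2aKO libraries, and the sums were 8.72 and 13.4 CPM in Mef2aKO cells and 22.4 to 33.6 CPM in Cre cells. In CD11c+ cells none fell and Ms4a7 rose.
With their mean as a covariate, 4 members passed on regular diet, 4 in Clec7a- cells, 0 in Clec7a+CD229- cells, 2 in Clec7a+CD229+CD11c- cells and 6 in CD11c+ cells. None of the 7 promoter factors passed in any of the 5 gates. Cd274 fell in the 4 cuprizone gates, with log2 fold changes of -0.70, -0.51, -0.52 and -0.48 in Clec7a-, Clec7a+CD229-, Clec7a+CD229+CD11c- and CD11c+ cells. For the difference of the CD229 step between Mef2aKO and Cre cells no member passed in edgeR, and 0.0% of genes did. A single member, Ciita, had an unadjusted p under 0.05, beside 471 of all 13204 genes, and DESeq2 called 0 members.

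In Trem2KO microglia on cuprizone, 7 members were lower than in WT microglia in the CD229- gate, where 20.3% of genes passed. In the CD229+ gate 5 were lower, where 52.5% of genes passed, so that count does not set the members apart. In CD229-CD11c- cells H2-Aa was at 4.07, 5.10, 1.73 and 2.82 CPM in Trem2KO cells and 22.7, 22.4 and 44.2 CPM in WT cells, a log2 fold change of -3.12 ± 0.59 (adjusted p = 0.00033, edgeR). H2-Ab1 was at 7.93, 8.79, 7.36 and 4.66 CPM in Trem2KO cells and 25.2, 26.5 and 49.2 CPM in WT cells (log2 fold change -2.24 ± 0.38, adjusted p = 9.07e-05, edgeR). Ciita was at 1.77, 0.760, 0.690 and 0.613 CPM in Trem2KO cells and 1.78, 1.80 and 3.88 CPM in WT cells (log2 fold change -1.37 ± 0.43, adjusted p = 0.0233, edgeR).
All Trem2KO libraries lay below all WT libraries for H2-Aa and H2-Ab1. For Ciita the groups in effect touched, at 1.774 CPM (17 reads) in Trem2KO replicate 1 and 1.776 CPM (15 reads) in WT replicate 1. With H2-Eb1, Cd74, H2-DMa and H2-Oa, 7 of 10 members fell, where 20.3% of genes passed. The members' median log2 fold change was -0.93. All 8 border macrophage markers fell too, with sums of 20.2 to 32.04 CPM in Trem2KO cells and 60.3 to 191 CPM in WT cells. With their mean as a covariate, 3 members passed, all lower.

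In CD229+CD11c- cells 5 members fell, where 52.5% of genes passed: H2-Ab1, Cd74, H2-DMa, H2-DMb1 and H2-DMb2. H2-Ab1 was at 29.02, 27.5, 18.3 and 19.4 CPM in Trem2KO cells and 57.3, 50.8 and 77.3 CPM in WT cells (log2 fold change -1.45 ± 0.31, adjusted p = 0.000302, edgeR). H2-DMa was at 78.1, 82.2, 82.0 and 79.1 CPM in Trem2KO cells and 189, 192 and 176 CPM in WT cells (log2 fold change -1.28 ± 0.08, adjusted p = 8.47e-14, edgeR). H2-DMb1 and H2-DMb2 fell with log2 fold changes of -0.52 ± 0.07 and -0.79 ± 0.15.
For H2-DMa the gap between genotypes was larger than the spread within either. Cd74 was at 78.8, 78.5, 59.8 and 59.1 CPM in Trem2KO cells and 93.5, 94.3 and 144 CPM in WT cells (log2 fold change -0.75 ± 0.31, adjusted p = 0.0444, edgeR). By DESeq2 Cd74 did not pass there (log2 fold change -0.76, adjusted p = 0.166). H2-Aa was at 30.4, 28.6, 17.3 and 25.1 CPM in Trem2KO cells and 22.1, 19.8 and 44.6 CPM in WT cells, with overlap and no call. Of the border macrophage markers, Folr2 and Pf4 fell, with sums of 83.6 to 117 CPM in Trem2KO cells and 77.1 to 224 CPM in WT cells. Of 7 lysosomal processing genes, Ctsb, Ctsd, Ctsl, Ctss, Ctsz and Ifi30 fell, with a median log2 fold change of the list of -0.56. Of the 7 promoter factors Rfx5 and Creb1 rose, with log2 fold changes of 0.42 and 0.26, where 52.5% of all genes passed.

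**Figure D4:**
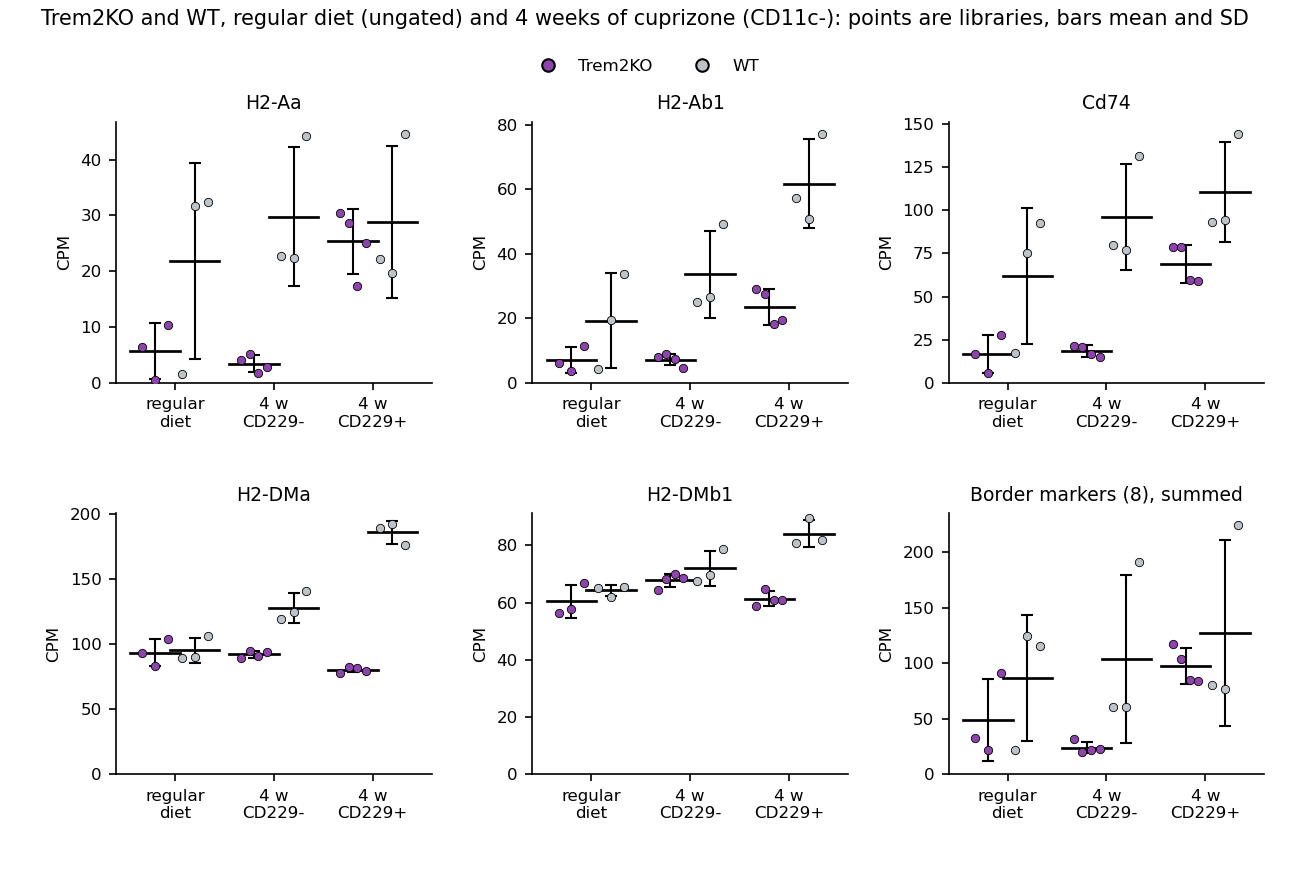
Levels in CPM of H2-Aa, H2-Ab1, Cd74, H2-DMa, H2-DMb1 and the summed border macrophage markers in Trem2KO (purple, left of each pair) and WT cells (grey), ungated on regular diet and CD11c- in both 4-week gates; points are libraries and bars are the mean and SD. H2-DMa sits between 78.1 and 82.2 CPM in Trem2KO CD229+ cells and between 176 and 192 CPM in WT CD229+ cells.

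On regular diet Cd74 alone fell, at 16.9, 5.95 and 27.9 CPM in Trem2KO cells and 17.5, 75.4 and 92.6 CPM in WT cells, where 0.577% of genes passed (log2 fold change -1.87 ± 0.39, adjusted p = 0.0165, edgeR). The groups overlapped, through WT replicate 1. In the same libraries the border macrophage markers summed to 32.8, 22.1 and 91.0 CPM in Trem2KO cells and 21.5, 124 and 115 CPM in WT cells, and none of the 8 passed. The lowest sum of each genotype was in the library with the lowest Cd74. In an edgeR fit of the compared groups alone the Cd74 call was lost. Without that library 4 members fell, without WT replicate 2 or 3 or Trem2KO replicate 1 or 2 none passed, and without Trem2KO replicate 3 there were 2.
Within Trem2KO mice the trio and Cd74 rose in CD229+ cells and H2-DMa and H2-DMb2 fell, where 27.5% of genes passed. Cd74 was at 78.8, 78.5, 59.8 and 59.1 CPM in CD229+ cells and 21.4, 20.8, 16.8 and 14.7 CPM in CD229- cells (log2 fold change 1.88 ± 0.34, adjusted p = 0.000102, edgeR). Of the border macrophage markers 7 of 8 rose between the same cells, and 2 members passed with their mean as a covariate. The step from CD229- to CD229+ differed between Trem2KO and WT cells for 4 members, where 14.8% of genes passed. The difference of the log2 fold changes was 2.85 ± 0.76 for H2-Aa (adjusted p = 0.0107, edgeR) and 1.65 ± 0.47 for Cd74 (adjusted p = 0.0177, edgeR). It was -0.78 ± 0.11 for H2-DMa (adjusted p = 8.5e-06, edgeR) and -0.41 ± 0.10 for H2-DMb1 (adjusted p = 0.00459, edgeR). With the marker covariate 2 members passed, both negative. By DESeq2 the difference was 2.86 for H2-Aa (adjusted p = 0.0468), and that of Cd74 did not pass (1.62, adjusted p = 0.0597).

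Egr2KO and Cre cells were compared in 5 populations. In the ungated sort at 5 weeks the trio and Cd74 fell, where 0.92% of 12387 genes passed. H2-Aa was at 28.2 and 18.7 CPM in Egr2KO cells and 69.0 and 67.3 CPM in Cre cells (log2 fold change -1.60 ± 0.15, adjusted p = 8.11e-05, edgeR). Cd74 was at 183 and 143 CPM in Egr2KO cells and 265 and 277 CPM in Cre cells (log2 fold change -0.78 ± 0.10, adjusted p = 0.000996, edgeR). The genotypes did not overlap, with 2 libraries each.
The border macrophage markers Cd163 and Mrc1 fell there, with sums of 54.1 and 57.8 CPM in Egr2KO cells and 75.9 and 80.3 CPM in Cre cells. The covariate leaves 1 residual degree of freedom in these 4 libraries, so the loss of all calls under it says nothing about them; the log2 fold change was then -2.59 ± 0.92 for H2-Aa and -1.14 ± 0.72 for Cd74. Outside the ungated 5-week sort no member passed in edgeR. Of all genes 0.182% passed in ungated cells on regular diet. At 6 weeks 0.19% passed in CD229- cells, 2.46% in CD229+ cells and 0.25% in CD11c+ cells. At an unadjusted p under 0.05 there were 4, 2, 4 and 2 of the 10 members in these populations, beside 836, 1036, 2172 and 1194 of all 13187 genes. DESeq2 called 0 members in each. None of the 8 border macrophage markers passed in these either. Their sums were 19.6 and 58.3 CPM in Egr2KO and 28.99 to 163 CPM in Cre cells on regular diet, and 49.4 to 69.98 CPM in Egr2KO and 70.04 to 101 CPM in Cre CD229- cells. They were 123 to 198 CPM in Egr2KO and 159 to 386 CPM in Cre CD229+CD11c- cells, and 40.4 to 47.1 CPM in Egr2KO and 54.7 to 248 CPM in Cre CD11c+ cells. H2-Aa was at 41.5, 46.8 and 49.4 CPM in Egr2KO CD229+CD11c- cells and 92.1, 134 and 75.4 CPM in Cre CD229+CD11c- cells, without overlap, a log2 fold change of -1.08 ± 0.42 (adjusted p = 0.175, edgeR). On regular diet 4 members were lower without Egr2KO replicate 2, and 1 without Cre replicate 3. Both Egr2KO baseline libraries carry a PE150 tag in their titles and the Cre ones do not, so these libraries alone cannot tell tag from genotype. With a tag covariate over the whole 6-week fit, H2-Aa had a log2 fold change of -1.35 (adjusted p = 0.448, edgeR). The 6-week Cre diet step is unbalanced as well, since 2 of its 3 cuprizone libraries carry the tag. No member passed with that covariate in either comparison. For the difference of the CD229 step between Egr2KO and Cre cells no member passed in edgeR, and 0.0% of genes did. At an unadjusted p under 0.05 there were 0 members, beside 545 of all 13187 genes, and DESeq2 called 0 members.

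Within groups the trio varied together with border macrophage markers. Over the deviations of the 81 libraries from their group means, the Pearson correlation of the trio's mean log2 level with the markers' mean was 0.801, that of Cd74 was 0.783 and that of Ciita 0.515. For H2-Oa it was 0.245 and for H2-Ob 0.041. These values are a description, and the points share libraries, depth and normalization. In the 15 CD11c+ libraries the trio summed to 142 to 635 CPM at marker sums of 33.6 to 248 CPM, and in the 43 cuprizone libraries without CD11c to 10.6 to 352 CPM at marker sums of 8.72 to 386 CPM.

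**Figure D5:**
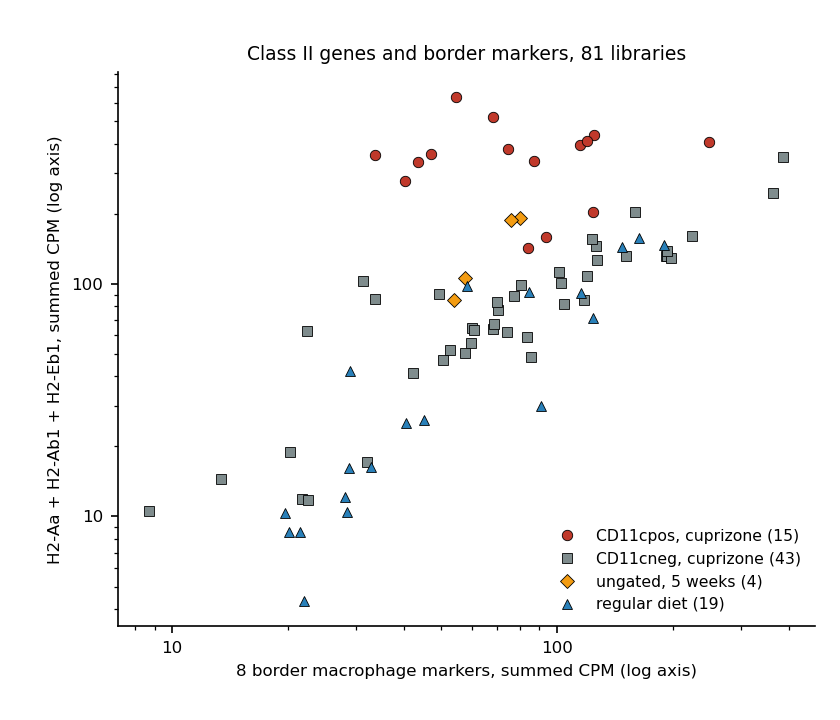
The summed classical trio against the summed border macrophage markers in CPM, both axes on a log scale, with 1 point per library marked by gate and diet. The CD11c+ libraries (red) lie at 142 to 635 CPM of the trio over marker sums of 33.6 to 248 CPM.

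Over the 28 group means the trio's level had a Pearson correlation of 0.980 with Cd74, 0.931 with Ciita, 0.702 with H2-DMb1, 0.581 with H2-Oa, 0.464 with H2-DMa, 0.362 with H2-Ob and -0.186 with H2-DMb2. The 10525 other genes compared had a mean of at least 5 CPM in 1 group or more and were listed with the same transcript throughout. A gene could thus enter through a single group where it was high. The most alike over the group means was Mir5107 (0.970), a microRNA gene that lies within Cd74 on the same strand. Reads of the 2 cannot be told apart. Next were Cybb (0.942), a subunit of the phagocyte NADPH oxidase, Tlr8 (0.923), a receptor for RNA in endosomes, Olr1 (0.910), a receptor for oxidised lipoprotein, and Itsn1 (0.895), a scaffold of endocytosis. Myof (0.889), Ms4a4a (0.888) and St8sia4 (0.886) completed the 8. For Ciita the 5 most alike were Mir5107 (0.924), Itsn1 (0.876), Kynu (0.876), Tlr8 (0.873) and Rassf4 (0.872). Ranked by deviations within groups instead, the lists shared 1 of the trio's 8 genes, Myof, and 1 of the 5 of Ciita, Mir5107.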

How the data were processed

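Raw read counts per gene were deposited by the authors for 81 libraries of sorted microglia; the buffers held sodium butyrate and Flavoperidol, per the labels' protocols. HOMER 4.11, STAR 2.7.0f, DESeq2 and fastp 0.20.0 are named in the submitters' processing notes, as are the builds mm10 and GRCm38; what each was used for is not given in the sources used here. Whether counting used strand is not given either. Levels are CPM, each count divided by its library's total gene count. Each of the 5 experiments was fitted once with edgeR 4.0.16 in R 4.3.3 (quasi-likelihood test, filterByExpr, TMM, 1 mean per group, no replicate block), with p-values adjusted by Benjamini-Hochberg over all genes tested and a threshold of 0.05. A gene passed where its adjusted p was under 0.05. Overlap of libraries between groups was described for the members only. The share of all genes without overlap is not given, so non-overlap is no test. The scripts were tested on simulated counts. Libraries of a group are pools of mice, so p-values measure the spread between pools. The chi-square statistic per gene between libraries of 1 group was 1.55 to 15.4 over 80 pairs, so none counted as a repeat. Ciita was listed with another transcript in the 5-week table than in the other tables.

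Alternatives were DESeq2 1.42.0, DESeq2 size factors in edgeR, no filter, a fit of the compared groups only, a replicate block, a covariate for the PE150 tag of 17 titles (its meaning is not stated), each library left out, and a border marker covariate added after seeing the data. Same-numbered libraries deviated together in every pair (over 0.1) in the CD229 step at 6 weeks only, with correlations of 0.121 to 0.176 in Egr2KO cells and 0.17 to 0.288 in Cre cells, as a hint from the data. All 10 members are described in every group. Genes alike were the 8 and 5 others with the highest correlation over the 28 group means on log2 CPM with a prior count of 2. The members, lists and tests were chosen with earlier results of these data known. Some genes of the lists are not reported here.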

Additional observations from a re-analysis of the deposited data

Results flagged for a closer look

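The step from CD229- to CD229+CD11c- cells at 4 weeks differed between Trem2KO and WT cells for 4 of the 10 members, by the test of the difference itself in edgeR. The difference of the log2 fold changes was 2.85 for H2-Aa and 1.65 for Cd74. H2-Aa had a log2 fold change of 2.85 ± 0.57 in Trem2KO cells and 0.00 ± 0.46 in WT cells, and Cd74 one of 1.88 ± 0.34 in Trem2KO cells and 0.24 ± 0.33 in WT cells. The difference was -0.78 for H2-DMa, with -0.22 ± 0.07 in Trem2KO cells and 0.56 ± 0.08 in WT cells. It was -0.41 for H2-DMb1, with -0.16 ± 0.06 in Trem2KO cells and 0.25 ± 0.07 in WT cells. Over the same step 7 of 8 border macrophage markers rose in Trem2KO cells and Folr2 alone rose in WT cells. With the markers' mean as a covariate, 2 members passed for the difference, both negative. By DESeq2 the difference passed for H2-Aa (2.86, adjusted p = 0.0468) and not for Cd74 (1.62, adjusted p = 0.0597).

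In Trem2KO CD229-CD11c- cells, 1 library of 4 stood apart for Ciita, at 1.774 CPM, while the others were at 0.760, 0.690 and 0.613 CPM. The gap to the nearest library, as a share of the group's range, was above Dixon's 95% critical value for 4 samples. Of the 20 sets of 4 libraries tested, chance alone gives about 1 such gap.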

How the results depend on the processing

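The 10 members' log2 fold changes in the 37 comparisons kept their direction, where called, under the other scaling, filter, test, block, PE150 and left-out-library settings, and 9 changed sign under the border marker covariate, which was chosen after seeing the data. In Cre cells it gave 0.93 for H2-Aa, 0.90 for H2-Ab1, 0.77 for H2-Eb1 and 0.75 for Cd74 in the 5-week diet step, and -1.94, -0.51, -1.62 and -0.58 for H2-Aa, H2-Ab1, H2-Eb1 and Cd74 in the Clec7a step. It gave 0.11 for H2-Ab1 in Mef2aKO against Cre Clec7a+CD229- cells. All markers of the list rose in the Cre Clec7a step themselves, and the source of their change was not tested. In sorted bulk RNA the covariate cannot tell a change in the number of border macrophages from a change within the gated cells.

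Counts of members called moved by over 1.5 times as follows, and the cause was not tested. The share of all genes passing under each setting, or without each library, is not given. The counts therefore do not tell changes of the members from changes of all genes. With the border marker covariate, 3 passed in Trem2KO against WT CD229- cells, 2 in the Trem2KO CD229 step, 2 in its difference from WT, 4 in the 5-week Cre diet step, 5 in the Cre Clec7a step, 1 in the 5-week Cre CD229 step, 1 in the Mef2aKO diet step, 0 in Mef2aKO against Cre Clec7a+CD229- cells, 2 in CD229+ cells, 0 in the Mef2aKO baseline CD229 step, 1 in Mef2aKO CD229+ against Cre baseline cells, 0 in the 6-week Cre CD229 step, 1 in the Egr2KO CD229 step, 5 in the Egr2KO CD11c step and 0 in Egr2KO against Cre ungated cells, where 1 residual degree of freedom was left.
With no filter, 4 passed in Trem2KO against WT baseline cells, 5 and 1 in the Cre diet steps at 5 and 6 weeks, 1 in the 5-week Cre CD229 step, 2 in the Mef2aKO diet step, 1 in Mef2aKO CD229+ against Cre baseline cells, 4, 6 and 5 in the Egr2KO diet, CD229 and CD11c steps, and 4 in Egr2KO against Cre baseline, CD229+ and CD11c+ cells each. With DESeq2, 1 passed in the WT diet step, 2 in the WT CD229 step, 1 in the Mef2aKO diet step and 1 in the Egr2KO CD11c step. With DESeq2 size factors 1 passed in the WT diet step. With only the compared groups, 1 passed in the WT diet step, 0 in Trem2KO against WT baseline cells, 1 in the 5-week Cre diet step, 6 and 5 in the Egr2KO CD229 and CD11c steps, and 2 in Egr2KO against Cre CD229+ and CD11c+ cells each. The PE150 covariate gave 1 in Mef2aKO CD229+ against Cre baseline cells.
The replicate block gave 1 in the 5-week Cre diet step, 0 in the Mef2aKO baseline CD229 step and 5 in the Egr2KO CD11c step. In these steps the correlation of same-numbered libraries was not over 0.1 in every pair, at 0.063 to 0.171 in the last. Whether same-numbered libraries share a pool of mice was not tested. In the CD229 step at 6 weeks, where every pair was over 0.1, the block left 3 in Egr2KO and 6 in Cre cells.

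Leaving out each library in turn gave 1 to 3 in the WT diet step, 2 to 3 in the WT CD229 step, 0 to 4 in Trem2KO against WT baseline cells, 0 to 1 in the Trem2KO diet step, 0 to 5 in the 5-week Cre diet step, 0 to 2 in the Mef2aKO diet step, 3 to 6 in the Mef2aKO Clec7a step, 3 to 6 in Mef2aKO against Cre CD229+ cells, 0 to 4 in the Mef2aKO baseline CD229 step, 0 to 5 in the 6-week Cre CD11c step, 1 to 6, 0 to 2 and 1 to 2 in the Egr2KO diet, CD229 and CD11c steps, and 0 to 4 in Egr2KO against Cre baseline cells. The lists of genes most like the trio and Ciita shared 7 of 8 and 5 of 5 genes at a prior count of 0.5. Depth limits Ciita most, since its counts are the lowest of the 10.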

Other observations

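March1, the ubiquitin ligase that removes class II molecules from the cell surface, fell in the CD229 step in Trem2KO cells (log2 fold change -0.40 ± 0.07) and WT cells (-0.86 ± 0.09, adjusted p = 7.75e-09, edgeR), in Cre cells at 5 weeks (-0.35 ± 0.07), and in Egr2KO cells (-0.47 ± 0.10) and Cre cells (-0.31 ± 0.10) at 6 weeks. It fell in the Clec7a step in Mef2aKO cells (-0.67 ± 0.08) and in Cre cells (-0.41 ± 0.07). In the CD11c step it rose in WT cells (0.36 ± 0.09) and fell in Cre cells at 6 weeks (-0.30 ± 0.10). It was higher in Trem2KO than in WT CD229+CD11c- cells (0.46 ± 0.08, adjusted p = 4.15e-05, edgeR).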
